A study of Canis lupus familiaris with 17 samples.

Results

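Cells resembling monocytic myeloid-derived suppressor cells (M-MDSCs) were picked out of single-cell RNA sequencing of dog blood by limits on 8 genes, and 575 cells met them, 0.682% of the 84345 cell barcodes that passed quality limits. A barcode had to hold at least 20 unique molecular identifiers (UMIs, each standing for 1 captured RNA molecule) of LYZ, at least 5 of S100A12, at least 2 of IL18 and at least 1 each of CD4 and DLA-DRA, and none of the T cell gene CD3E, the B cell gene MS4A1 or the immature neutrophil gene CAMP. The cells were thus selected on measured values of these genes, and the levels of those 8 genes describe the selection, and no test of them is given. The cells are called gated cells below.

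Mononuclear cells (PBMC, genotype label Wt, primary immune cells) came from the blood of 7 healthy pet dogs and 10 pet dogs with osteosarcoma (OS). Healthy dogs stayed free of disease during follow-up, while the dogs with OS had a primary bone tumor and no treatment before the blood was drawn, with amputation to follow. Dogs are named below as H or OS with their number. Ages were not given in the sample records. The paper gives ages, and its older dogs with OS, by its own numbering, were OS1, OS2, OS4, OS5 and OS10. Each was older than every healthy dog, so age and OS are partly confounded. Leukocytes were taken from a Ficoll density gradient after collection in EDTA, red cells were lysed, and single cells were captured on a 10x Genomics Chromium instrument, so mature neutrophils, which mostly pass through the gradient, are under-represented. Each dog was 1 library of between 7740230 and 56510134 UMIs. The dog is the replicate throughout, and gated cells of 1 dog are not independent samples.

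Myeloid-derived suppressor cells are myeloid cells that expand in cancer and long inflammation and restrain T cells. A polymorphonuclear form resembles neutrophils, and a monocytic form resembles classical monocytes with little surface MHC class II. Suppression is a property of function, and no T cell assay is part of these counts. Dog neutrophils carry CD4 on their surface, unlike those of most species, so CD4 marks neutrophils and a subset of monocytes in dog blood as well as helper T cells.

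Within the gate a cell held between 20 and 566 UMIs of LYZ (lysozyme, median 116), between 5 and 175 of S100A12 (a calcium-binding alarmin, median 17) and between 2 and 73 of IL18 (a cytokine of the IL-1 family, median 5). CD4 ranged from 1 to 31 UMIs (median 5), and DLA-DRA, the alpha chain of the dog MHC class II DR molecule, from 1 to 165 (median 15). Among the lower limits, that on IL18 had the most gated cells at the limit and the most barcodes kept out by it alone. There 139 gated cells sat at exactly 2 UMIs, 983 barcodes missed the gate by IL18 alone, and 241 missed it by 1 UMI of IL18. At the S100A12 limit 17 cells were just inside and 19 just outside. DLA-DRA had 65 cells at its limit of 1 UMI and 297 cells with none that met every other limit, the largest number outside by 1 UMI. For CD4, 71 cells were at the limit of 1 UMI and 86 were outside by CD4 alone, while for LYZ there was 1 cell just inside and 1 just outside. A single UMI of CD3E kept out 20 barcodes, of MS4A1 2 and of CAMP 4.

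Healthy dogs gave 236 gated cells and dogs with OS 339, from 9 in OS3 and in OS4 to 82 in H1. At least 25 gated cells, the minimum for tests of genes, were found in H1, H2, H3 and H7 and in OS1, OS2, OS5, OS6, OS7 and OS10. Matrices of different dogs shared 922 barcode sequences, 10 gated cells had a barcode that was also kept in another dog, and 0 barcodes were gated in more than 1 dog. H7 stood apart from the other libraries: 28.5% of its kept barcodes were neutrophil-type cells (at least 5 UMIs of S100A12 and 1 of CD4, none of DLA-DRA and fewer than 20 of LYZ), against 0.977 to 8.36% in the other 16 dogs. Counts of genes without H7 are given beside the results below.

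For comparison, every other barcode with at least 20 UMIs of LYZ, at least 1 of DLA-DRA and none of CD3E, MS4A1 and CAMP was taken as another monocyte, 12709 in all, of which 1645 had CD4 and 11064 had none. Neutrophil-type cells numbered 3965, and barcodes with CAMP, taken as immature neutrophils, 607. Levels are given as CPM, counts per 1000000 UMIs in the summed cells of a dog, and are compared between cells and dogs and not between genes. A dog entered the mean of a kind of cell where it had at least 25 of them. Mean levels of single genes set side by side for gated cells, monocytes and neutrophil-type cells are over the same 10 dogs, those of T cells and of barcodes with CAMP are over 17 and 5 dogs, and ranges of summed lists cover every such dog. All 5 dogs in the means of barcodes with CAMP had OS, since no healthy dog had 25 of them.

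Gated cells were smaller in captured RNA than other monocytes and richer than neutrophil-type cells. By dog, the gated cells had a median of 4901 to 8637 UMIs, the other monocytes of 9579 to 15702 and the neutrophil-type cells of 1407 to 2102. Gated cells held fewer UMIs than other monocytes in 17 of 17 dogs, with a median ratio of 0.550. Mitochondrial UMIs made up 0.092 to 0.908% of a dog's median gated cell, 1.87 to 3.09% of its median other monocyte, 0.639 to 1.59% of its median other CD4+ monocyte and 0 to 0.141% of its median neutrophil-type cell. The gated cells were below the other monocytes in 17 of 17 dogs, also when other monocytes were matched to them on UMIs per cell, and above the neutrophil-type cells in all dogs but OS3. Between groups, the median gated cell held 7324 ± 1250 UMIs in healthy dogs (SD, n = 7) and 6804 ± 1160 in dogs with OS (n = 10), and 0.648 ± 0.197% and 0.410 ± 0.167% mitochondrial UMIs. Doublets, droplets with more than 1 cell, were sought with Scrublet scores. The highest scores of each dog were marked, their number set by an assumed rate of 0.8% per 1000 barcodes. This marked 3938 of the 84345 kept barcodes, 34 of the 575 gated cells (5.91%) and 2.34% of other monocytes. The part of UMIs per cell and of doublets in the differences that follow was not tested beyond the alternatives named there.

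**Figure D1:**
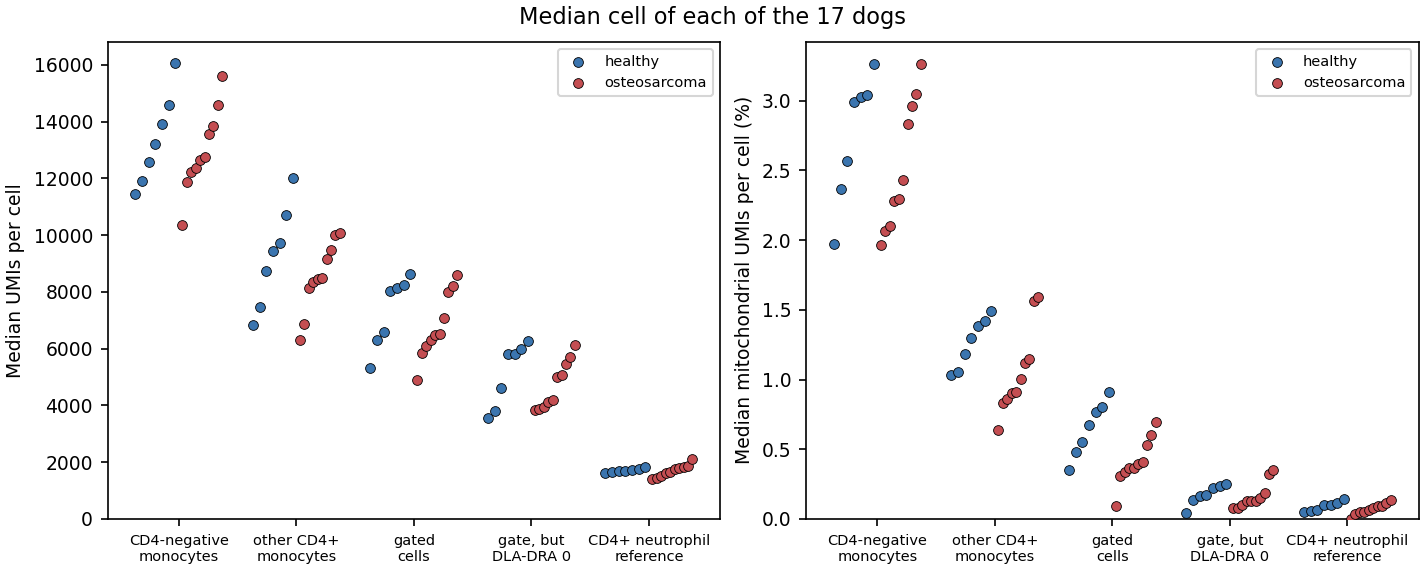
Median UMIs per cell (left) and median percent of mitochondrial UMIs per cell (right) in CD4-negative monocytes, other CD4+ monocytes, gated cells, cells that met the gate but for DLA-DRA at 0, and neutrophil-type cells, with a point for each dog (blue healthy, red OS). The mean over dogs falls from left to right in both. Neighbouring sets overlap except CD4-negative and CD4+ monocytes in mitochondrial percent and the last pair in UMIs, and gated cells at 4901 to 8637 UMIs lie between monocytes and neutrophil-type cells.

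Of genes that monocytes use, LYZ and DLA-DRA were part of the gate, and TCF7L2 and CTSS stood close to their level in other monocytes. TCF7L2, a transcription factor of Wnt signaling that monocytes express, was at 564 ± 211 CPM in gated cells (SD, n = 10 dogs), against 538 CPM in other CD4+ monocytes, 496 in CD4-negative monocytes and 20.6 in neutrophil-type cells, and at least 1 UMI of it was found in 81.0% of gated cells, 1.26% of neutrophil-type cells and 1.16% of T cells. CTSS, a lysosomal protease of antigen-presenting cells, stood at 1943 ± 338 CPM in gated cells (n = 10) and 39.4 in neutrophil-type cells. The receptor CSF1R stood at 201 CPM in gated cells, against 45.8 in neutrophil-type cells. CSF1R was lower in other CD4+ than in CD4-negative monocytes in 10 of 10 dogs, and lower in gated cells than in other CD4+ monocytes in 7 of 10. None of these 3 genes passed both limits of the test between gated cells and other monocytes, with log2 differences of 0.07 for CTSS, -0.50 for CSF1R and -0.00 for TCF7L2. Further monocyte genes were lower in gated cells and are given with their lists below.

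That test used edgeR's quasi-likelihood method on counts summed per dog and cell set in the 10 dogs, with the dog as a block, and a gene was called at a Benjamini-Hochberg adjusted p below 0.01 with a log2 fold beyond 0.58 in either direction. An SE given with a log2 fold was derived from the fold and the test statistic, and it does not measure the spread between dogs. The 8 genes of the gate were left out. Genes whose counts go with S100A12, IL18 or CD4 from cell to cell can differ here through the selection itself, so the folds describe the selected cells and do not by themselves show a separate population. Of 13697 genes tested, 692 were called higher in gated cells (5.05%) and 1616 lower (11.8%), and the median log2 difference over all genes was -0.20. With DESeq2's size factors in place of TMM, 42.4% of the calls were higher instead of 30.0%, and the median of all genes moved to -0.09. Against other monocytes matched on UMIs per cell, 278 genes were higher and 305 lower of 10023 tested (2.77% and 3.04%), of which 261 and 296 were also called in the first comparison. Against other CD4+ monocytes alone, 166 were higher and 288 lower of 10855 (1.53% and 2.65%). Without H7 the counts were 646 and 1532. Of the gene lists described below, those of antigen presentation and of interferon then had 7 of 12 and 5 of 22 genes lower in place of 5 and 3, and in each other list the counts moved by at most 1 gene.

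IL1B, the secreted pro-inflammatory interleukin-1 beta, ran from 548 CPM in the gated cells of the lowest dog through a median of 2103 to 4585 in the highest, and in other monocytes of the same dogs from 38.7 through 325 to 1582. It was higher in gated cells in 10 of 10 dogs, by a log2 fold of 2.30 ± 0.13 (SE; adjusted p = 5.8e-21, edgeR), although the ranges of the dogs overlapped. MEFV, which encodes the inflammasome protein pyrin, lay between 261 and 574 CPM in gated cells (median 367) and between 62.2 and 175 in other monocytes (median 106), without overlap, and differed by 1.67 (adjusted p = 2.79e-22, edgeR). KCNJ2, an inward-rectifier potassium channel, lay between 148 and 1478 CPM in gated cells (median 448) and between 32.6 and 407 in other monocytes, a log2 difference of 1.87 (adjusted p = 3.46e-21, edgeR). Against other monocytes matched on UMIs the log2 differences were smaller, 0.87 for IL1B, 0.97 for MEFV and 1.00 for KCNJ2, and against CD4+ monocytes 0.90, 0.75 and 0.81. These genes exceeded other CD4+ monocytes and neutrophil-type cells. IL1B averaged 2195 CPM in gated cells, 1273 in other CD4+ monocytes, 440 in CD4-negative monocytes and 201 in neutrophil-type cells. IL1B, MEFV and KCNJ2 were each higher in gated cells than in other CD4+ monocytes in 10 of 10 dogs and higher than in neutrophil-type cells in 10 of 10. IL31RA, a receptor chain for the itch cytokine IL-31, had the same order with 103 CPM in gated cells, 54.4 in other CD4+ monocytes and 7.72 in neutrophil-type cells, in 9 of 10 and 10 of 10 dogs. Gated cells were not the highest for IL1B, MEFV and KCNJ2. Cells that met the gate but for DLA-DRA at 0 held more in 4 of 4 dogs compared, as given below.

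By cell, IL1B was found in 76.0% of gated cells, 32.0% of other monocytes, 6.91% of neutrophil-type cells and 0.692% of T cells. For MEFV the shares were 81.0, 48.9, 1.64 and 1.10%, and for KCNJ2 71.8, 40.6, 13.1 and 0.286%. Other monocytes held more UMIs per cell than gated cells and neutrophil-type cells fewer, and the part of depth in the shares was not tested. T cells, at 4090 to 7053 UMIs in the median cell of a dog, give the share in cells not known to use these genes.

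LTF, the iron-binding granule protein lactoferrin, was at 1156 ± 407 CPM in gated cells (SD, n = 10; 527 to 1997, median 1189) and at 164 ± 60.4 in other monocytes (109.8 to 289.5), without overlap, a log2 fold of 2.64 ± 0.09 (SE; adjusted p = 1.4e-29, edgeR). Lactoferrin is a product of developing neutrophils, and in barcodes with CAMP it reached 19316 CPM. Neutrophil-type cells had 211 CPM, and gated cells lay above them in 10 of 10 dogs. Of 7 immature neutrophil genes tested, LTF and FADS1 were higher in gated cells and 0 were lower, with a median log2 difference of 2.19, and against matched monocytes 3 of 3 tested were higher. The other 5 of the 7 were not called. All genes had 5.05% higher and 11.8% lower, and 2.77% higher against matched monocytes. The median rests partly on genes with few counts in gated cells, given below. MMP9, a collagenase of neutrophil granules, had a median of 3.98 CPM in gated cells and 0.257 in other monocytes, where 1 dog reached 62.7, and was not called (log2 2.19; adjusted p = 0.0230, edgeR). Over all 10 dogs PGLYRP1 had 3 counts in gated cells, MMP8 3, TCN1 3, CRISP2 2 and CD177 0, where barcodes with CAMP averaged 12427, 1793, 1206, 2306 and 697 CPM. The gate takes no barcode with CAMP, so low levels of these genes describe the selection. Other CD4+ monocytes also held LTF at 781 CPM, and against them the log2 fold was 0.51, short of the fold limit. Matched on UMIs it was 1.01.

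Other genes that the study lists for M-MDSCs, and FCGR1A, which the list does not hold and which was added here, were also higher. CPXM2, a carboxypeptidase-like secreted protein, was at 161 CPM in gated cells and 28.8 in other monocytes (log2 2.38), STEAP4, a metalloreductase, at 66.7 and 7.54 (2.90), CSF3R, the receptor of granulocyte colony-stimulating factor, at 103 and 25.3 (1.86), and FCGR1A, the high-affinity Fc receptor for IgG, at 279 and 137 (0.90). Counting FCGR1A, 9 of 9 genes outside the gate were higher, with a median log2 difference of 1.87, against 5.05% of all genes and a median of -0.20. The study drew its list from the healthy dogs of this series, 4 of which are in this test, so its direction is not independent evidence. The same holds for the study's lists for CD4-negative and CD4+ monocytes. It also holds for the markers of immature neutrophils, neutrophils, dendritic cells, and eosinophils and basophils, which were taken wholly or mostly from the study's lists. Against matched monocytes 9 of 9 were higher (median 1.00) and against other CD4+ monocytes 8 of 9 (median 0.83), beside 2.77% and 1.53% of all genes.

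Neutrophil genes outside that list were raised as well. All 11 neutrophil markers tested were higher in gated cells than in other monocytes, with a median log2 difference of 1.35, and 6 of the 11 against matched and 6 of the 11 against CD4+ monocytes. The shares of all genes called higher in these 3 comparisons were 5.05%, 2.77% and 1.53%. Most of the 11 are in the study's own neutrophil list, drawn from dogs of this series, so their direction is not independent evidence either. SERPINA1, the protease inhibitor alpha-1-antitrypsin, ran from 972 to 2939 CPM in gated cells (median 2223) and from 318 to 972 in other monocytes, a log2 fold of 1.35 (adjusted p = 2.76e-23, edgeR). The kinase gene SGK1 stood at 969 and 370 CPM (log2 1.28), the formyl peptide receptor FPR2 at 107 and 36.1 (1.41), the digestive-type glucosidase MGAM at 131 and 30.2 (2.20), and the alarmin S100A8 at 5134 and 2339 (0.97). CXCR2, the chemokine receptor that calls neutrophils into tissue, was low in both at 5.24 and 0.218 CPM (3.95). Summed over the 11 markers, gated cells held 8906 to 14738 CPM, other monocytes 4082 to 6352, and neutrophil-type cells 36982 to 60964, so gated cells lay in every dog with 25 gated cells between those levels. The part of neutrophil RNA in these values was not tested.

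The largest increases by the ranking used for named genes were led by CYP4F22. This fatty acid hydroxylase ranged from 333 to 820 CPM in gated cells (median 442) and from 6.18 to 46.1 in other monocytes, a log2 fold of 4.94 (adjusted p = 3.33e-36, edgeR). ADGRE3, an adhesion receptor of myeloid cells, was at 84.0 and 4.42 CPM (log2 4.13), ALOX5, the first enzyme of leukotriene synthesis, at 154 and 16.6 (3.12), the tetraspanin CD82 at 44.3 and 6.82 (2.58), and the growth factor TGFA at 41.0 and 6.52 (2.51). CYP4F22 stepped up from 6.01 CPM in CD4-negative monocytes to 91.7 in other CD4+ monocytes, 499.6 in gated cells and 2507 in neutrophil-type cells, and ADGRE3 from 1.98 to 22.5, 84.0 and 1046. CYP4F22, ADGRE3, ALOX5, SERPINA1, S100A8, CSF3R and FCGR1A each lay above other CD4+ monocytes and below neutrophil-type cells in 10 of 10 dogs. ENSCAFG00000014612 (log2 4.57), ENSCAFG00000029470 (3.52) and ENSCAFG00000049181 (2.93), which have no gene name in the counts, also rose. The log2 folds of CYP4F22, ADGRE3 and CD82 were 2.61, 2.45 and 1.18 against matched and 2.43, 1.86 and 0.95 against CD4+ monocytes.

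**Figure D2:**
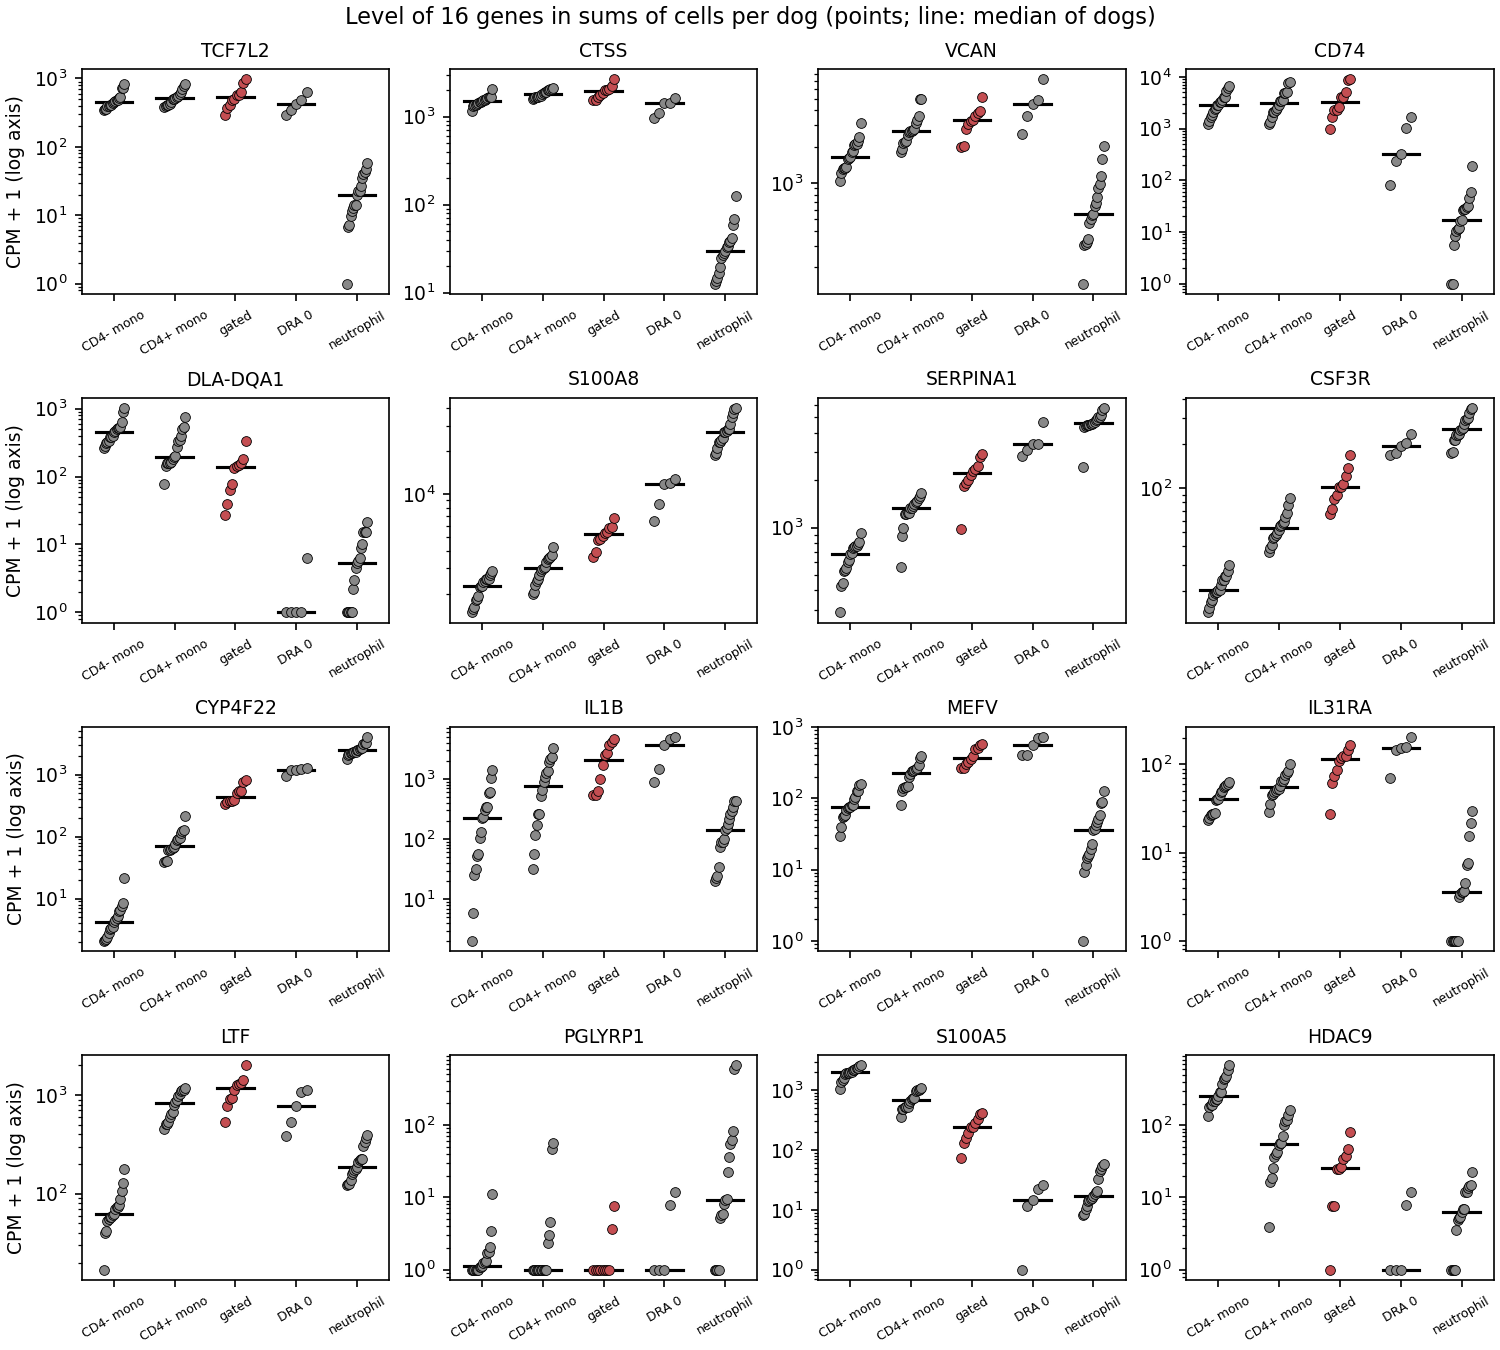
CPM + 1 on a log axis for 16 genes in CD4-negative monocytes, other CD4+ monocytes, gated cells (red), cells with DLA-DRA at 0 and neutrophil-type cells, 1 point per dog and a line at the median of dogs. TCF7L2 and CTSS stay at the monocyte level in gated cells, S100A8, SERPINA1, CSF3R and CYP4F22 step up from left to right, and IL1B, MEFV, IL31RA and LTF are higher in gated cells than in the cells at either end.

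Of 12 antigen presentation genes tested, 5 were lower in gated cells and 0 higher, beside 11.8% lower and 5.05% higher of all genes. DLA-DQA1, an MHC class II alpha chain, ran from 26.1 through a median of 138 to 332 CPM in gated cells and from 243 through 456 to 844 in other monocytes, a log2 difference of -1.94 (adjusted p = 5.64e-19, edgeR), and HLA-DQB2, the class II beta chain name in these counts, averaged 464 and 1114 CPM (-1.49). DLA-DMA and DLA-DOA, which load and regulate loading of peptides, differed by -0.67 and -2.73, and the co-stimulatory receptor CD40 by -2.46. The other 7 genes tested of this list were not called, among them CD74, the invariant chain, at 4052 CPM in gated cells and 3668 in other monocytes (-0.11), the class II transactivator CIITA (-0.08) and CD86 (-0.53). The median over the 12 was -0.75. Against matched and against CD4+ monocytes 2 of the 12 were lower, beside 3.04% and 2.65% of all genes. DLA-DQA1 and HLA-DQB2 fell from CD4-negative to CD4+ monocytes and from those to gated cells in 10 of 10 dogs.

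DLA-DRA itself is part of the gate, and it varied more between dogs than the other limits: the median gated cell held 4 UMIs in OS6 and 45 in OS4, and over all gated cells the 10th percentile was 1 UMI and the 90th was 52. Of the 297 cells with no DLA-DRA UMI that met every other limit, 27 in OS1, 37 in OS6, 29 in OS7 and 47 in OS10 were compared with the gated cells of those 4 dogs as a description, since no healthy dog had 25 of both. They held 214 CPM of CSF1R against 226 in gated cells, 1397 of CTSS against 1891 and 67.1 of CIITA against 65.5. The cells without DLA-DRA had less CD74 (409 against 3096 CPM) and HLA-DQB2 (7.40 against 352), and more S100A8 (11200 against 5287), SERPINA1 (3656 against 2546) and CYP4F22 (1164 against 462). IL1B stood at 3015 against 2559, MEFV at 558 against 448 and KCNJ2 at 990 against 700, each higher without DLA-DRA in 4 of 4 dogs. Cells with DLA-DRA at 0 held 3565 to 6286 UMIs at the median of a dog, beside 4901 to 8637 in gated cells, and the part of this depth in the DLA-DRA zeros was not tested.

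Within the IL-1 family and inflammasome list, 7 of 19 genes tested were higher in gated cells and 2 lower, with a median of 0.27. Of all genes 5.05% were higher and 11.8% lower, so the 2 lower are near the share of all genes. Beside IL1B and MEFV the higher genes were the decoy receptor IL1R2 (log2 1.06), the receptor chain IL1RAP (0.90), both chains of the IL-18 receptor, IL18R1 (0.74) and IL18RAP (1.41), and the IL-18 inhibitor IL18BP, at 32.3 CPM against 9.17 (1.75). The signaling receptor IL1R1 was lower at 25.3 CPM against 85.7 (-1.88), as was the adaptor PYCARD, through which inflammasomes recruit caspase-1, at 96.4 against 226 (-1.33). NLRP3, the sensor, was at 590 and 380 CPM (0.46, under the fold limit). Of the 19, 5 were higher against matched monocytes and 4 against CD4+ monocytes, beside 2.77% and 1.53% of all genes.

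Receptors for growth factors and cytokines were raised in 6 of 16 genes and lowered in 1, with a median of 0.50. Of all genes 5.05% were higher and 11.8% lower, so the 1 lower is under the share of all genes. The higher receptors were both chains of the GM-CSF receptor, CSF2RA (146 against 42.1 CPM, log2 1.58) and CSF2RB (0.63), with CSF3R, IL4R (1.01), IL17RA (0.65) and IL31RA, while the signal transducer IL6ST was lower (-0.71). Against matched monocytes 4 were higher and 3 against CD4+ monocytes. Of 23 pattern recognition genes 5 were higher (21.7%, beside 5.05% of all genes), the bacterial lipoprotein receptor TLR2 (0.75), the muramyl dipeptide sensor NOD2 (0.68) and the C-type lectins CLEC7A (1.25), CLEC4E (0.64) and CLEC4D (1.74), and 2 lower (8.70%, under the 11.8% of all genes), the endosomal receptors TLR3 (-2.32) and TLR7 (-3.03), both under 5 CPM. Against matched monocytes 3 of 18 tested and against CD4+ monocytes 2 of 22 were higher and 0 lower. Of 18 chemokine genes 4 were higher and 4 lower, against matched monocytes 2 and 2 of 16, and against CD4+ monocytes 2 and 0 of 17. The shares of all genes in these comparisons were 5.05% and 11.8%, 2.77% and 3.04%, and 1.53% and 2.65%. CXCL8, which draws neutrophils, averaged 4624 CPM in gated cells and 2753 in other monocytes (0.82), and the receptor CCR1 138 and 32.9 (1.82), with CXCR2 and CXCR4 the other increases, while the ligands CCL3 (-0.79), CCL7 (-1.45) and CCL8 (-1.56) were among the lower genes.

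Of 32 genes tied to suppression of T cells in the literature, 24 were not called, 5 were higher and 3 lower, which is 15.6% and 9.38% beside 5.05% and 11.8% of all genes, with a median of 0.29. ARG2, the mitochondrial arginase, ranged from 161 to 383 CPM in gated cells (median 293) and from 97.8 to 173 in other monocytes (log2 0.85; adjusted p = 1.39e-11, edgeR), PTGS2, the inducible cyclooxygenase, averaged 286 and 138 CPM (1.05), IL4R was named above, and the fatty acid transporter SLC27A2 was low at 2.55 and 0.0523 (4.80). TGFB1 (-0.60), the heme oxygenase HMOX1 (-1.24) and the annexin ANXA1 (-0.85) were lower. Arginase 1, ARG1, stood at 0.534 CPM in gated cells, NOS2 and IDO1 had 0 counts there, and IL10 had 1.93 CPM. Other members without a call were abundant. The checkpoint protein VSIR had a median of 5 UMIs per gated cell and was at 0 in 7 of 575 cells. For the oxidase subunit CYBA the median was 8, with 1 cell at 0. The checkpoint ligand CD274 was at 48.3 CPM in gated cells and 38.3 in other monocytes (0.18) and the transcription factor STAT3 at 271 and 173 (0.48), neither past the limits. Against matched monocytes 2 were higher and 1 lower of 29 tested, and against CD4+ monocytes 1 and 2. The shares of all genes there were 2.77% and 3.04%, and 1.53% and 2.65%.

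Among classical monocyte genes, 4 of 16 were higher (among them FCGR1A, the matrix proteoglycan VCAN and the scavenger receptor CD68) and 1 lower (CD163, the haptoglobin receptor, log2 -1.10), with a median of 0.11. Of 9 genes that the study lists for CD4-negative monocytes, 7 were lower and 0 higher (median -0.91), among them the bactericidal protein BPI, the clotting subunit F13A1 and fibronectin, FN1. Of 14 genes that respond to glucocorticoids, SGK1 and IL1R2 were higher and 5 were lower, including FKBP5, the receptor's co-chaperone, at 64.1 against 167 CPM (-1.55), with a median of -0.59. Of 31 NF-kB and immediate early genes 4 were higher and 3 lower (12.9% and 9.68%, median -0.02), and of 22 interferon-stimulated genes ISG20 was higher, at 563 against 129 CPM (2.11), and 3 were lower (median -0.19), shares of 4.55% and 13.6% that lie near those of all genes. Sugar transporters SLC2A1 and SLC2A3 and the hexokinase HK3 were the 3 higher of 18 glycolysis genes, against 3 lower. Beside the counts of these lists, 5.05% of all genes were higher and 11.8% lower. The 3 lower glycolysis genes and the lower NF-kB genes are near the latter share. Most of these calls were not made against the closer comparison cells. Against matched monocytes, classical monocyte genes had 1 higher and 0 lower, glucocorticoid genes 1 and 1, NF-kB genes 0 and 3 and glycolysis genes 0 and 0. Against CD4+ monocytes the counts were 1 and 1, 0 and 2, 0 and 2, and 0 and 1. The CD4-negative monocyte genes had 6 and 5 of 9 lower against these 2 kinds of cell. All genes had 2.77% higher and 3.04% lower against matched monocytes, and 1.53% and 2.65% against CD4+ monocytes. Of 8 Fc receptor genes 3 were higher and 1 lower, of 8 S100 genes tested 1 and 2, of 5 nonclassical monocyte genes 0 and 1, and of 10 genes that the study lists for CD4+ monocytes 4 and 3, beside 5.05% higher and 11.8% lower of all genes. In lists this short 1 gene is a larger share than that of all genes called higher, so single calls say little about them. Against matched monocytes these 4 lists had 1 and 1 of 8, 1 and 1 of 6, 0 and 2 of 5, and 1 and 3 of 10, and against CD4+ monocytes 1 and 1 of 8, 1 and 1 of 7, 0 and 0 of 5, and 1 and 3 of 10.

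Dendritic cell markers were lower in 9 of 9 genes tested, with a median of -2.15, and the DC gene CD1C averaged 1.85 CPM in gated cells and 19.2 in other monocytes (-3.35). The limits for other monocytes did not keep out dendritic cells. Against matched monocytes 2 of 9 were lower, and against CD4+ monocytes 1 of 9. The shares of all genes called lower in the 3 comparisons were 11.8%, 3.04% and 2.65%. Among the decreases ranked largest were TMEM117, a membrane protein, at 5.82 against 60.4 CPM (-3.35), the peptidase CPQ (-3.34), the calcium-binding S100A5 (-3.09), the homeobox gene MEIS1 (-3.01), the deacetylase HDAC9 at 28.2 against 218 CPM (-2.98), the actin regulator EPS8 (-2.98), the neonatal Fc receptor FCGRT at 16.5 against 107 (-2.91) and FRMD4B (-2.81), with ENSCAFG00000023144 (-3.29) and ENSCAFG00000023111 (-3.18). S100A5 ranged from 73.4 to 418 CPM in gated cells and from 1257 to 2460 in other monocytes, and T cells held 1374. In the reference annotation of the build UU_Cfam_GSD_1.0, S100A5 neighbours S100A6, which has no entry under that name among the counted genes. Whether reads of the neighbour were counted as S100A5 was not tested. Against matched monocytes the difference of S100A5 was -2.19 and of HDAC9 -2.08, and against CD4+ monocytes -1.66 and -0.77, the latter no call.

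Ribosomal protein genes were lower as a body: 55 of 58 fell and 0 rose, with a median of -1.16, beside 11.8% lower and 5.05% higher of all genes. Summed, they made up 45216 to 84028 CPM of gated cells, 81530 to 162764 of other monocytes and 11381 to 22635 of neutrophil-type cells. Against matched monocytes 23 of 57 were lower (median -0.56) and against CD4+ monocytes 24 of 57 (-0.54), beside 3.04% and 2.65% of all genes. Plain CPM of the other genes moves with so large a sum, and the log2 differences given are after TMM normalization.

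Markers of T cells, NK cells, erythrocytes and platelets were low in sum, and the gate itself took no barcode with CD3E or MS4A1. T cell markers summed to 6.52 to 50.2 CPM in gated cells, against 2937 to 4501 in T cells, with 0 of 9 higher than in other monocytes and CD2 lower. NK markers summed to 0 to 6.67 CPM with 3 of 7 at 0 counts, erythrocyte markers to 0 to 6.93 CPM with 4 of 6 at 0, and platelet markers to 12.8 to 167 CPM. Of the 5 platelet and 5 NK genes tested 0 were higher and 0 lower, beside 5.05% higher and 11.8% lower of all genes. B cell markers summed to 1364 to 2751 CPM, mostly CD79A at 1258 CPM. BANK1 also contributed, with a median of 4 UMIs per gated cell and 0 in 65 of 575 cells. BANK1 lay above neutrophil-type cells in 10 of 10 dogs and above other CD4+ monocytes in 5, and was not called against other monocytes. CD79A stood higher, at 8337 CPM, in T cells. In UU_Cfam_GSD_1.0 it neighbours RPS19, which has no entry under that name among the counted genes, and whether its reads were counted as CD79A was not tested. Eosinophil and basophil markers had 3 of 6 genes higher, IL5RA, DACH1 and PADI3, the latter at 687 CPM against 208, beside 5.05% of all genes. Gated cells were below neutrophil-type cells in 10 of 10 dogs for PADI3 and IL5RA and in 7 of 10 for DACH1.

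**Figure D3:**
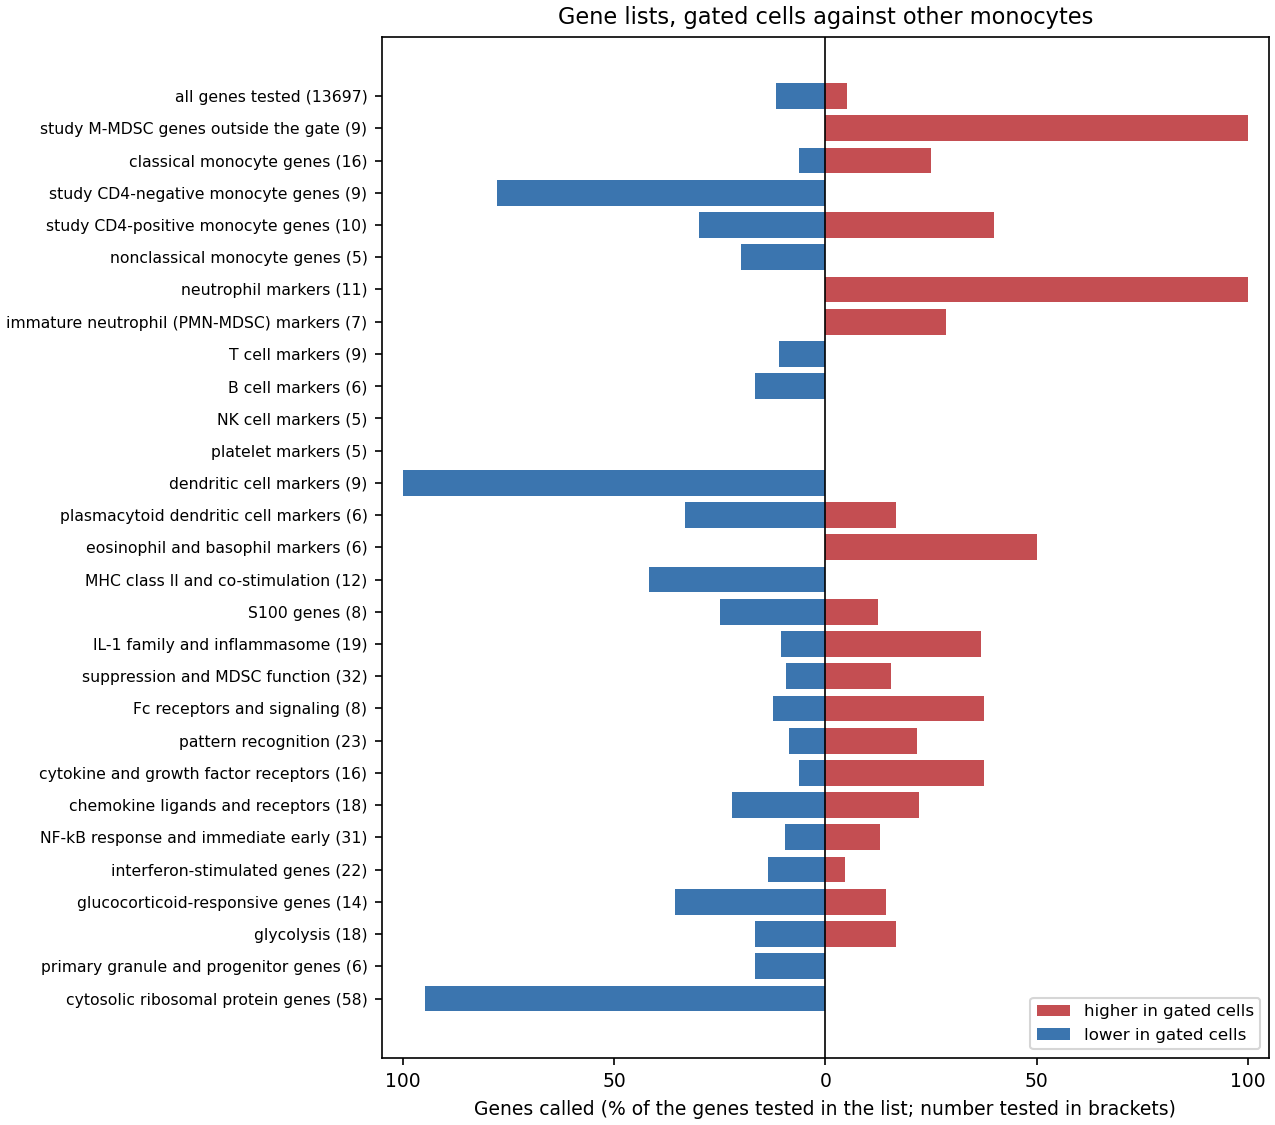
Percent of the tested genes in each list called higher (red, right) or lower (blue, left) in gated cells than in other monocytes, with the number of genes tested in brackets and all 13697 genes in the top row at 5.05% and 11.8%. Neutrophil markers and the study's M-MDSC genes, with FCGR1A counted among them, are at 100% higher, dendritic cell markers at 100% lower, and ribosomal protein genes at 55 of 58 lower.

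Levels in gated cells differed widely between dogs for some genes, described here for a set chosen after their values were seen. IL1B per gated cell had a median of 37.5 UMIs in OS1 and of 0 in H4, H6, OS5, OS6 and OS8. In summed gated cells IL1B spanned 8.37-fold between dogs, CXCL8 43.8-fold, from 376 to 16461 CPM, and TNFAIP3, the inhibitor of NF-kB signaling A20, 70.7-fold, from 44.7 to 3156. For TNFAIP3, PTGS2 and the chemokines CCL3 and CCL4 the 3 highest dogs were OS2, H1 and OS1, with a healthy dog among them, and the 3 lowest for each gene were among H3, OS5, OS6 and OS7. For IL1B, KCNJ2, TNF and SGK1 the 3 highest were dogs with OS, namely OS1, OS2 and OS10. By the ages in the paper OS1, OS2 and OS10 are older dogs, so age and OS cannot be told apart in this ranking. OS5, also an older dog, was lowest for IL1B at 548 CPM and among the 3 lowest for SGK1, but not for KCNJ2 or TNF. Other monocytes of the same dogs spanned 40.9-fold for IL1B, with OS1, OS2 and H1 highest and H3, OS6 and OS5 lowest. CD74 spanned 8.94-fold in gated cells, from 995 to 8894 CPM, while SERPINA1 ran from 972 to 2939 CPM and CTSS from 1542 to 2655.

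The study asked which circulating cells differ between dogs with OS and healthy dogs. Gated cells made up 0.255 to 1.36% of kept barcodes in healthy dogs (median 0.532%) and 0.219 to 1.44% in dogs with OS (median 0.644%), and the groups overlapped across their ranges. Means were 0.674 ± 0.402% (SD, n = 7) and 0.696 ± 0.370% (n = 10), a difference of 0.0223 percentage points (p = 0.887 by the exact Wilcoxon test, two-sided, and 0.887 adjusted over 2 shares), and 6 of 10 dogs with OS lay above the healthy median. As a share of all monocytes the gated cells were 2.16 to 11.3% in healthy dogs (median 4.03%) and 1.97 to 9.27% in dogs with OS (median 3.81%), with means of 5.40 ± 3.34% and 4.46 ± 2.38% (exact Wilcoxon p = 0.475, adjusted 0.887), and 4 of 10 dogs with OS lay above the healthy median. Counting error alone is wide at these numbers: exact binomial 95% intervals of the share of kept barcodes were 1.08 to 1.69% in H1, 1.13 to 1.82% in OS10 and 0.100 to 0.416% in OS4. All monocytes were 8.52 to 19.0% of kept barcodes in healthy dogs and 5.58 to 36.1% in dogs with OS. With no limit on DLA-DRA the shares of kept barcodes were 0.891 ± 0.417% and 1.15 ± 0.559% (exact p = 0.364).

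**Figure D4:**
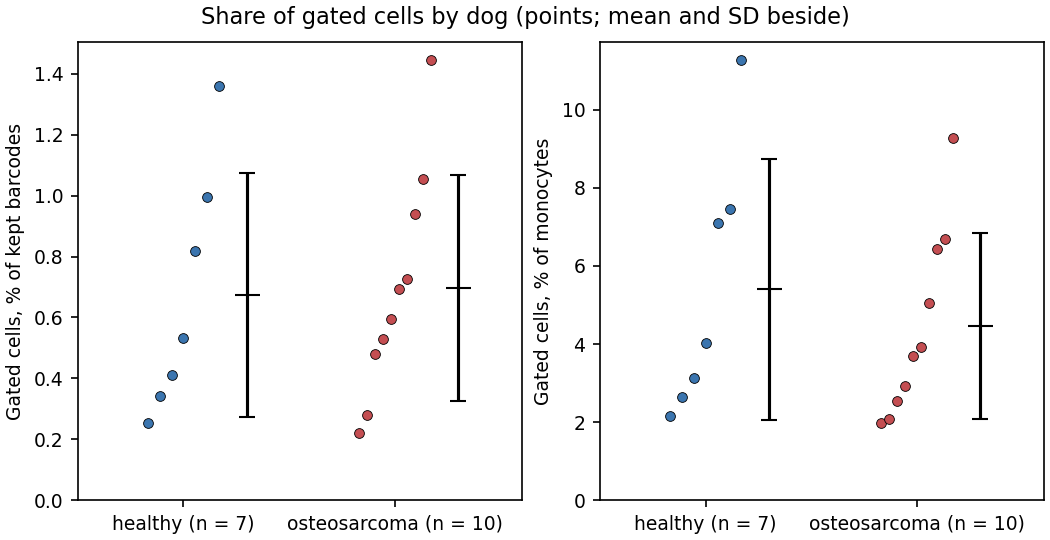
Gated cells as a percent of kept barcodes (left) and of monocytes (right), with a point for each of 7 healthy dogs and 10 dogs with OS and the mean and SD beside them. The groups cover the same range, 0.255 to 1.36% and 0.219 to 1.44% of kept barcodes.

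Genes within gated cells were compared between the 6 dogs with OS and the 4 healthy dogs that had at least 25 gated cells. One sum per dog was fitted, without a block. Of 8922 genes tested 0 were called higher and 0 lower (0.0%) by edgeR, with 404 at an unadjusted p below 0.05 (183 higher and 221 lower in OS), and DESeq2 called 0 with 265 at that level. Without H7 edgeR called 0 with 461. In simulated data with 3-fold changes edgeR called 30.5% of the changed genes at this size, and 92.6% where the mean was 50 counts or more, so changes in low genes were mostly not detectable at this depth. Fewer cells of a type and less RNA per cell cannot be told apart in such sums.

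The genes of this paragraph were named for the smallest p in this same comparison, so a gap between the groups follows in part from that choice. How many of all genes show such a gap was not counted. FADS1, a desaturase of long-chain fatty acids, had the smallest p. Gated cells held 19.5 CPM of it in H1, 9.88 in H2, 6.52 in H3 and 6.06 in H7, and 31.9 to 139 in the 6 dogs with OS (median 68.8), so the groups did not overlap. The log2 difference was 2.61 ± 0.48 (SE; adjusted p = 0.321, edgeR), and with no filter on counts edgeR called it at an adjusted p of 0.000183. Over the other alternatives run the adjusted p lay between 0.0183 (DESeq2) and 1.00 (edgeR without H2). In other monocytes of the same dogs FADS1 differed by 2.73 (adjusted p = 0.215 by edgeR and 6.53e-08 by DESeq2, which called it), from 3.30 ± 0.39 CPM in the 4 healthy dogs (SD) to 20.8 ± 11.5 in the 6 with OS. Barcodes with CAMP averaged 3161 CPM of FADS1 over 5 dogs, all with OS, and no healthy level was available to set beside it. In CD4-negative monocytes the 8 immature neutrophil markers summed to 60.4 ± 17.1 CPM in healthy dogs (SD, n = 7) and 115.8 ± 60.6 in dogs with OS (n = 10), and in other monocytes the 6 of them tested had a median log2 difference of 2.51 between the groups with 0 called. In gated cells the sums were 1145 ± 238 CPM (n = 4) and 1260 ± 499 (n = 6), mostly LTF. The 8 markers include FADS1 itself, so these sums and the median partly restate its difference. The part of immature neutrophils in the FADS1 difference was not tested. FN1, fibronectin, stood at 411, 451, 365 and 212 CPM in H1, H2, H3 and H7 and between 467 and 1057 in dogs with OS (median 768), again without overlap, a log2 difference of 1.14 (adjusted p = 0.874, edgeR) beside 1.28 in other monocytes. YEATS2, a subunit of a histone acetyltransferase complex, was lower in dogs with OS, at 12.8 to 31.9 CPM (median 14.6) against 54.3, 119, 71.7 and 36.3, a log2 difference of -1.80 (adjusted p = 0.568, edgeR) with -0.16 in other monocytes. CDCA7L stood between 47.9 and 121 CPM in dogs with OS and between 19.8 and 52.2 in the healthy dogs (1.38), and ACACA, which makes malonyl-CoA for fatty acid synthesis, was at most 50.04 CPM in dogs with OS and at least 57.1 in healthy dogs (-1.18). CBLB, a ubiquitin ligase, averaged 55.2 CPM in dogs with OS and 109 in healthy dogs (-0.96), and SASH1 15.5 and 48.5 (-1.73). ENSCAFG00000005494 reached 32.6 CPM in the healthy group and lay between 2.31 and 1442 in the OS group.

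The genes that the study lists for M-MDSCs, and FCGR1A, showed no call between the groups. IL1B was at 2467, 2682, 639 and 1738 CPM in the gated cells of H1, H2, H3 and H7 and at 548 to 4585 in dogs with OS (median 2319), a log2 difference of 0.43 ± 0.57 (SE; adjusted p = 0.975, edgeR) that turned to -1.35 with age class as a term. KCNJ2 stood at 701, 148, 267 and 291 CPM in those healthy dogs and at 358 to 1478 in dogs with OS (median 673), which overlapped through H1 (1.16 ± 0.46, adjusted p = 0.975, edgeR). MEFV was at 318, 264, 261 and 484 CPM, and at 300 to 574 in dogs with OS (0.47). LTF differed by 0.11, CPXM2 by 0.21, STEAP4 by -0.08, CSF3R by -0.03, IL31RA by 0.04 and FCGR1A by 0.24.

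**Figure D5:**
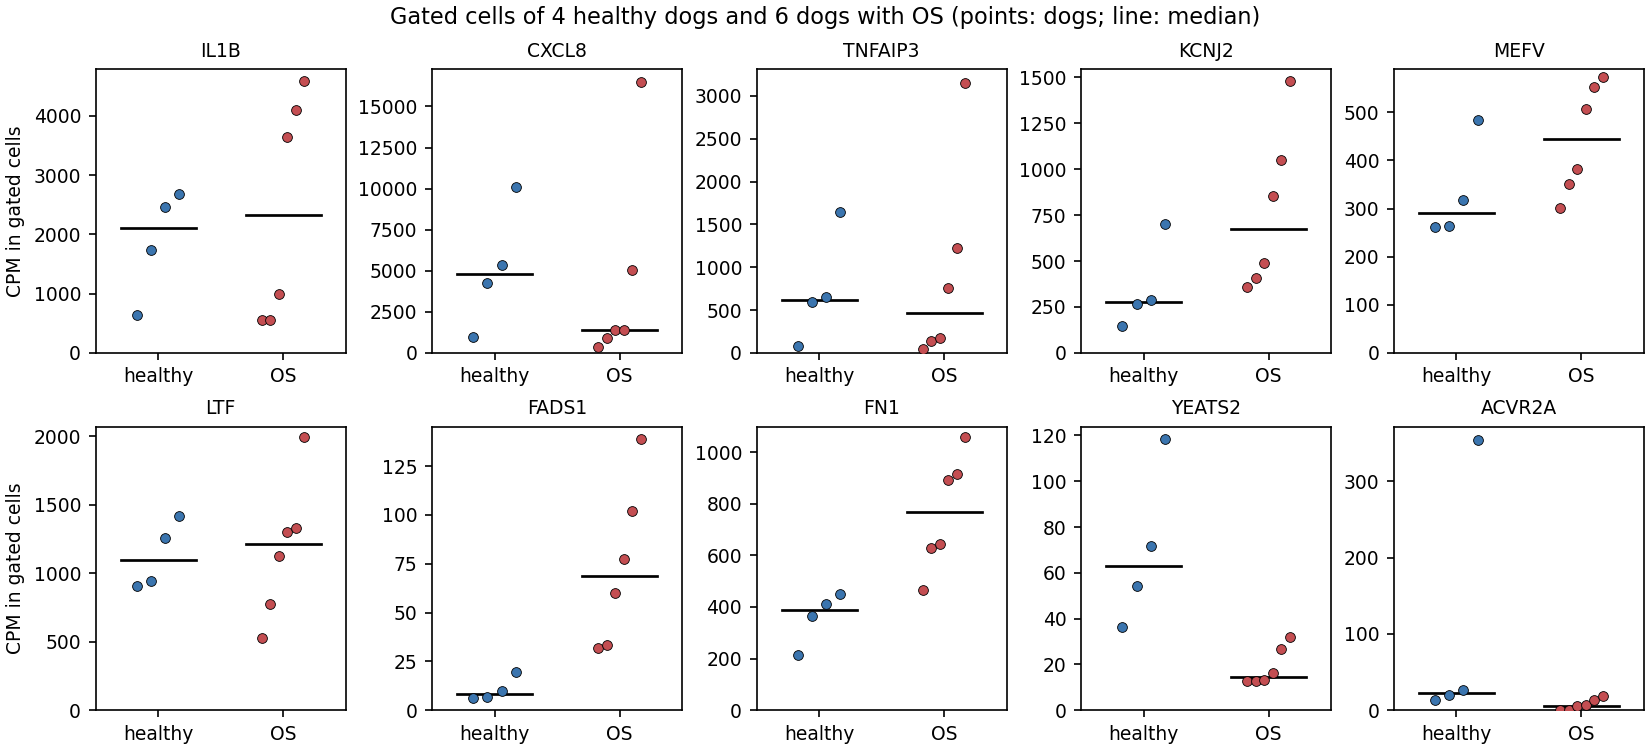
CPM in gated cells for 10 genes, each point a dog (blue 4 healthy, red 6 with OS) and the line the median. IL1B, CXCL8, TNFAIP3 and LTF overlap widely, FADS1 at 6.06 to 19.5 against 31.9 to 139 and FN1 lie apart with higher values in OS, YEATS2 lies apart with lower values, and the healthy dog H7 stands alone for ACVR2A. FADS1, FN1, YEATS2 and ACVR2A were picked for the smallest p in this comparison.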

How the data were processed

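The deposited values were whole-number UMI counts per gene and barcode, made by the authors with Cell Ranger 7.0.0 on CanFam3.1 and not normalized. Which of the authors' alignments, with or without introns, was deposited is not known, and their DoubletFinder removal was not applied to the files. Barcodes with 200 to 4500 genes, 500 to 20000 UMIs and under 10% mitochondrial UMIs were kept. Members, gene lists and tests were chosen with earlier results of these data known. Sums per dog of 25 cells or more were tested for genes with at least 10 counts by edgeR's quasi-likelihood test. Levels are CPM of plain sums. By rule, the genes named are the study's M-MDSC genes and FCGR1A, the 10 called genes with the largest fold in each direction at a mean of at least 20 CPM, up to 4 members of a list with the highest CPM and, where fewer than 5 were called, the 5 smallest p in each direction (those of other monocytes, which are no members, are not described). List members named beyond these, mostly those that passed the test, were chosen after their values were seen. Alternatives were other gates, cells thinned to 4000 UMIs, Scrublet, matched or CD4+ monocytes, DESeq2, other filters, age, and each dog left out. Tests were checked on simulated data. Intervals cover counting error only. Dogs are separate animals. The range of depth is given in the report, and no file column was left out. Some genes of the lists are counted but not reported by name.

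Tools were Python 3.11.15, scanpy 1.11.5, scipy 1.17.1, numpy 2.4.6, matplotlib 3.10.9, pandas 2.3.3, edgeR 4.0.16 and DESeq2 1.42.0 in R 4.3.3.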

Additional observations from a re-analysis of the deposited data

Results flagged for a closer look

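Chance alone sets about 1 in 20 groups apart by the gap used here, the distance of the highest or lowest dog to its neighbour over the range of the group. In all 50 groups were looked at, so some of those below are to be expected by chance. In gated cells of healthy dogs, ACVR2A, an activin receptor, was at 354 CPM in H7 and at most 26.4 in the others, SASH1 at 15.1 in H7 and 56.0 to 64.1 in the others, STEAP4 at 170 in H3 and 30.3 to 52.7 in the others, and ENSCAFG00000008154 at 39.1 in H3 and 0 to 3.29 in the others. Among dogs with OS, CSF3R was at 166 CPM in OS7 and 70.5 to 106 in the others, and SASH1 at 31.9 in OS6 and 9.24 to 15.7 in the others.

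The difference between dogs with OS and healthy dogs was itself compared between gated cells and other monocytes, with an interaction term in edgeR over 13697 genes. At the limits used above 0 genes were called, with 647 at an unadjusted p below 0.05. At an adjusted p below 0.05 there were 5, each at 0.0236: the interferon-induced chemokine CXCL10 (log2 2.12), CCSER1 (0.71), ENSCAFG00000025332 (-0.89), ACVR2A (-1.92) and YEATS2 (-1.59), where a positive value means a larger OS minus healthy difference in gated cells. At the limits used above, DESeq2 and the comparison with matched monocytes also called 0, with 275 and 399 at an unadjusted p below 0.05. Without H7, an alternative chosen after seeing the data, edgeR called 5 genes higher at the limits used above, BACH2 (2.20), TNF (2.36), FKBP5 (2.11), HDAC9 (1.75) and TENM3, which was at 0 in the gated cells of the other 3 healthy dogs, and 2 lower, ENSCAFG00000025332 (-1.09) and YEATS2 (-1.74). With all 10 dogs, TNF (1.74), HDAC9 (1.29), MEIS1 and RANBP17 (-1.69) each had an adjusted p of 0.0994 and IL1B (-0.63) one of 0.0582. CXCL10 rested on OS1 with 166 CPM and OS2 with 100 in gated cells, against 0 to 26.4 in the other 8 dogs, and ACVR2A on H7, which held 355 CPM in other monocytes too.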

How the results depend on the processing

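The 2 shares did not pass the test under any alternative run. The difference in the share of kept barcodes turned sign when cells were thinned to 4000 UMIs (-0.00671 percentage points, exact p = 0.740), without the older dogs with OS (-0.132, p = 0.755), and in the paired comparison by replicate number (-0.00125, p = 1), and leaving out each dog gave -0.0609 to 0.137. The share of monocytes gave -1.49 to 0.0353 with each dog left out, the last without H1, and -2.34 (p = 0.149) without the older dogs with OS. Replicate numbers did not pair the dogs (correlations of 0.256, 0.0399 and 0.0443 for numbers 1, 2 and 7). For gated cells against other monocytes, the counts of higher and lower genes of 692 and 1616 went to 278 and 305 (matched on UMIs), 166 and 288 (CD4+ only), 604 and 1063 (strict gate) and 858 and 1064 (DESeq2), and to between 646 and 783 and between 1377 and 1604 with each dog left out. The cause was not tested. Of 297 values of the 27 named genes 292 kept their call. Those lost were IL1B with no dog block (adjusted p = 0.0200), LTF (log2 0.51), ENSCAFG00000023144 (-1.19) and HDAC9 (-0.77) against CD4+ monocytes, and MEIS1 matched (-1.65).

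Between OS and healthy dogs, calls in gated cells were 0 except with no filter on counts, where 4 rose (ENSCAFG00000032615, FADS1, ENSCAFG00000005494, ENSCAFG00000030286) and 4 fell (ENSCAFG00000003668, CDKN1A, ACVR2A, TIPARP). The replicate block gave 0, with 295 at an unadjusted p below 0.05. In other monocytes edgeR called 0 (634 at an unadjusted p below 0.05), DESeq2 called 2 higher (FADS1, FN1) and 2 lower (MSANTD3-TMEFF1, ROBO1), and the replicate block 1. The interaction at an adjusted p of 0.05 gave 2 higher and 3 lower, and without H7, at 0.01 and the fold limit, 5 higher and 2 lower. Log2 differences of genes without a call turned sign as follows. The replicate block gave -0.12 for LTF, 0.70 for STEAP4, -0.37 for IL31RA and -0.0849 for FCGR1A. Age as a term gave -1.35 for IL1B, -0.14 for LTF and 0.20 for CSF3R. The loose gate gave 0.0822 for STEAP4, and the strict gate 0.48 for STEAP4. With Scrublet's highest scores out STEAP4 was 0.0015 and IL31RA -0.0566, and with 10 cells per sum STEAP4 was 0.0231 and ENSCAFG00000008154 -0.17. Leaving out each dog gave -0.0803 to 0.266 for LTF, -0.334 to 0.453 for STEAP4, -0.197 to 0.111 for CSF3R and -0.161 to 0.233 for IL31RA. The cause was not tested. Between 25 and 82 gated cells per dog limit the counts of low genes.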
